A study of Mus musculus with 4 samples.

Results

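The 104 CpG islands described here carried a high ratio of methylated to input DNA in every pool of neonatal mouse brain that was profiled. They were selected on these measured ratios, out of 13091 autosomal regions of 3 or more neighbouring probes. A region was kept when every probe was well above background in both channels on all 4 arrays, which 141 regions met, and when the median log2 ratio over its probes, centred on the autosomal median of the array, was 1 or more on each array. A centred value of 1 is a 2-fold higher ratio than the median autosomal probe. The levels below are therefore a description of the selected regions and are given without a test.

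Whole brains of pups aged 1 day, born to C57BL/6J dams, gave the genomic DNA. The dams had received vehicle (Sham) or 100 ug per mouse of titanium dioxide nanoparticles (TiO2-H) through the trachea, in a volume of 25 uL, and all 4 pools therefore came from dams that underwent the same procedure. Gestational day 14 is given in the sample names and 10.5 in the treatment protocol. Each exposure and labelled sex was 1 pool on 1 array, with 2 offspring from each of 5 Sham dams or 6 TiO2-H dams. The paper lists only these 5 and 6 dams for the experiment. By these numbers the male and female pools of an exposure came from the same dams. No value has a replicate, and precision is limited by having 4 arrays. In methylated DNA immunoprecipitation (MeDIP), an antibody to 5-methylcytosine pulls down methylated fragments, here carrying Cy5, which were set against untreated input carrying Cy3. An array of DNA holds no expression markers, so the labelled tissue could not be checked by them. In pooled whole brain, more methylated cells of a type and more methylation per cell cannot be told apart.

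The arrays were unequal before any comparison. Cy5 was well above background at 51.2% and 59.4% of probes on the Sham male and Sham female arrays and at 25.3% and 33.0% on the male-labelled and female-labelled TiO2-H arrays. The median absolute deviation of the log2 ratios was 1.08, 0.60, 0.91 and 1.04 in the same order. X-linked input relative to autosomes (log2) was -0.75 (Sham male), 0.03 (Sham female), 0.03 (male-labelled TiO2-H) and -0.74 (female-labelled TiO2-H), so both TiO2-H arrays went against their sex labels. The male pair of arrays lay on slide 1 and the female pair on slide 2, with Sham at position 1 and TiO2-H at position 2. Labelled sex and slide cannot be told apart, nor can exposure and position.

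CpG islands are stretches of DNA dense in CpG dinucleotides, and most of those at gene starts are free of methylation in somatic tissue. Promoter islands of genes used only in germ cells are a known exception, since they gain methylation around implantation and stay silent in the body. Islands inside gene bodies are methylated more often than those at gene starts, and islands that control imprinted genes carry methylation on a single parental allele. MeDIP enriches a fragment by the number of methylated cytosines in it, so its ratio depends on CpG density as well as on methylation.

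Several members lay at the starts of germline genes, and their promoters are shown for the difference in CpG density among them. The 250 bases before the gene start are given for 6 members whose probes reached the window from 250 bases before to 50 bases after the start of their gene and whose gene has a single promoter in RefSeq (GRCm38.p6), together with the housekeeping gene Ppia, whose island was below 0 on all 4 arrays. They are written 5′ to 3′ on the strand of the gene, and capitals mark the CpG sites that a methyltransferase can modify.
Sycp2 (chr2:178407659-178407908, minus strand): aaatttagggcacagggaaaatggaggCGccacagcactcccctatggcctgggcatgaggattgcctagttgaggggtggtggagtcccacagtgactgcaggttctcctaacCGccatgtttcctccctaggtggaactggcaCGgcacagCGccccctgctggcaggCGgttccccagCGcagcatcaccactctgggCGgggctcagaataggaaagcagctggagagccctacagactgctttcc
Sycp3 (chr10:88459337-88459586, plus strand): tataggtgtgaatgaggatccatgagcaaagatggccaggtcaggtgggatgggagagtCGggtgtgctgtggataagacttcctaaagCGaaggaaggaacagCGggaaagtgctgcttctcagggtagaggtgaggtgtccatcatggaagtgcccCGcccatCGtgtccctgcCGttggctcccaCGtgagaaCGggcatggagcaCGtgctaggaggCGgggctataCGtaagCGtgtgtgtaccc
Ddx4 (chr13:112652311-112652560, minus strand): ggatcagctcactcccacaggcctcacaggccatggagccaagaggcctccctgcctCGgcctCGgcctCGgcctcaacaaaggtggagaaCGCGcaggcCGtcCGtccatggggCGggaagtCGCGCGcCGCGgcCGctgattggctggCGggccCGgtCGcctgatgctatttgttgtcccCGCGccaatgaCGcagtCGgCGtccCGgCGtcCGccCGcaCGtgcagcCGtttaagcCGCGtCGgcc
D1Pas1 (chr1:186967166-186967415, plus strand): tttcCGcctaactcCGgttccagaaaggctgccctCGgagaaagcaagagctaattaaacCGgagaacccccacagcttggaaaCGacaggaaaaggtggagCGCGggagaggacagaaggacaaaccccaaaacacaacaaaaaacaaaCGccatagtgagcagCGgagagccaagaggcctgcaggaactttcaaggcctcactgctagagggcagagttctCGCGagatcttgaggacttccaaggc
Henmt1 (chr3:108940307-108940556, plus strand): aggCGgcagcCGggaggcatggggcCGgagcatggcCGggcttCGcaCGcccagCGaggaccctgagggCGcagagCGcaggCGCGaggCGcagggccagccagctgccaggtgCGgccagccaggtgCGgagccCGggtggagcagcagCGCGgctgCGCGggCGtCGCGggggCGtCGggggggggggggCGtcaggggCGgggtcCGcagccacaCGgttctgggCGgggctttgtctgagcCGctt
Naa11 (chr5:97392331-97392580, minus strand): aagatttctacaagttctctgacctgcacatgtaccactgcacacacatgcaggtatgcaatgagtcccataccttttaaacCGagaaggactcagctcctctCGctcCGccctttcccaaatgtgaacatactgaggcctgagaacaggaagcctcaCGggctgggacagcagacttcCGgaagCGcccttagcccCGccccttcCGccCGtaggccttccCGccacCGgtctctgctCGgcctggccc
Ppia (chr11:6415617-6415866, plus strand): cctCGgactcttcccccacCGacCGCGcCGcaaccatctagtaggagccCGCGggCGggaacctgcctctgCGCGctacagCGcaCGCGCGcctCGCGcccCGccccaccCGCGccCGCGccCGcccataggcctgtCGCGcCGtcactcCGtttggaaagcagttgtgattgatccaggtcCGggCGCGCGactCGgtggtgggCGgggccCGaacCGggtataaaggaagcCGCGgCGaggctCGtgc

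These promoters did not share a CpG density. The 250 bases held 31 CpG sites at Ddx4, 30 at Henmt1, 12 each at Sycp3 and Naa11, 11 at D1Pas1 and 7 at Sycp2, against 38 at Ppia, 8 at Gapdh, another housekeeping gene, and a median of 6 (quartiles 2 and 16) over the promoters of 27025 genes. The sequence CACGTG, which reads the same on both strands and is the core of an E-box, was present at Sycp3 and Ddx4 and in 6.05% of all promoters. The sequence GGCGGGA, searched on both strands as a core of E2F sites, was present at Ddx4, Naa11 and Ppia and in 9.76% of all promoters. These matches are a description of the letters only.

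The Sycp2 member (5 probes at chr2:178141876-178142402, mm9, labelled as promoter) had a value of 3.099 (Sham male), 2.24 (Sham female), 2.14 (male-labelled TiO2-H) and 3.26 (female-labelled TiO2-H), and values of further regions follow in this order of arrays. Sycp2 and Sycp3 encode proteins of the axial elements of the synaptonemal complex, which holds homologous chromosomes together in meiosis. The Sycp3 member (6 probes at chr10:87922155-87922793) had 2.68, 1.99, 2.17 and 2.65 in the same order of arrays. In both, the Sham male array and the female-labelled TiO2-H array were the high ones.

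The Ddx4 member (5 probes at chr13:113442131-113442701) had 2.55, 1.86, 2.02 and 2.69 in the same order. Ddx4, also known as Vasa, is an RNA helicase of germ cells. The D1Pas1 member (7 probes at chr1:188791248-188792165) had 1.76, 1.76, 1.93 and 1.85. This was the smallest range of the region median over the 4 arrays of any member (0.16). The median log2 fold of its single probes, TiO2-H over Sham of the same labelled sex, was larger, at 0.32 (male) and 0.63 (female). D1Pas1 is a DEAD-box helicase gene of the testis, and most of the probes of its island lay inside the gene.

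The Stk31 member (4 probes at chr6:49345373-49345780) had 1.98, 1.72, 1.75 and 2.17 in the same order, and the Piwil2 member (3 probes at chr14:70828758-70829118) had 1.52, 1.15, 1.25 and 1.60. Stk31 encodes a kinase-like protein of male germ cells, and Piwil2 binds piRNAs, the small RNAs that silence transposons in the germline. Both islands were labelled as promoters. Piwil2 had the lowest value of the 6 members from the germline list on all 4 arrays.

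The germline list held 61 genes and 22 of the named regions, of which 6 were members. It was chosen with earlier results of these data known, so its shares are a description and no test. Among all 3803 named regions, 64 were members. The other 16 germline regions each held at least 1 probe that was dim on some array, so the filter on signal removed them whatever their ratio. Without that filter, 16 of the 22 germline regions had a value of 1 or more on each of the 4 arrays, against 400 of the 3803 named regions (10.5%) and 733 of all 13091 regions (5.60%). Mael, a piRNA factor, was at 2.20, 1.78, 1.86 and 2.28 in the order of arrays used above. Dazl, a germ cell RNA-binding protein, was at 1.69, 1.64, 1.56 and 1.99. The islands of Boll, Tcp11 and 1 of the 2 Tdrd1 islands were below 1 on all 4 arrays.

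Further members outside the list carried genes of the same kind and were singled out after their values were seen. Henmt1, which methylates the ends of piRNAs, was also named as 1 of the 12 members with the highest lowest array, with 3.02, 2.30, 1.93 and 2.79 (3 probes at chr3:108742937-108743191). Naa11, a catalytic subunit of a protein acetyltransferase of the testis, had 2.29, 1.89, 1.95 and 2.24 (4 probes at chr5:97820982-97821510). H1f7, a linker histone of spermatids, had 1.19, 1.58, 1.76 and 2.04 (4 probes at chr15:98087209-98087565). Of 50 members with a symbol and a usable distance to the gene start, 8 had a probe in the window around the start: D1Pas1, Sycp2, Henmt1, Tmem54, Naa11, Stk31, Sycp3 and Ddx4.

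The imprinted list gave 21 named regions and no member, and 0 of the 21 passed the filter on signal. Its median was 0.65, 0.78, 0.89 and 1.14 in the order of arrays used above, against -0.10, -0.01, -0.13 and -0.07 over all named regions. Cdkn1c, a growth-restraining imprinted gene, was at 1.25, 1.01, 1.47 and 1.74, the only region of the list at 1 or more on each array. A member labelled to Mir335 (6 probes at chr6:30688012-30688541) had 1.90, 1.44, 1.49 and 1.89. In RefSeq, Mir335 lies within the imprinted gene Mest, which was on the list but had no region under its own name. That member was singled out after its values were seen.

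**Figure D1:**
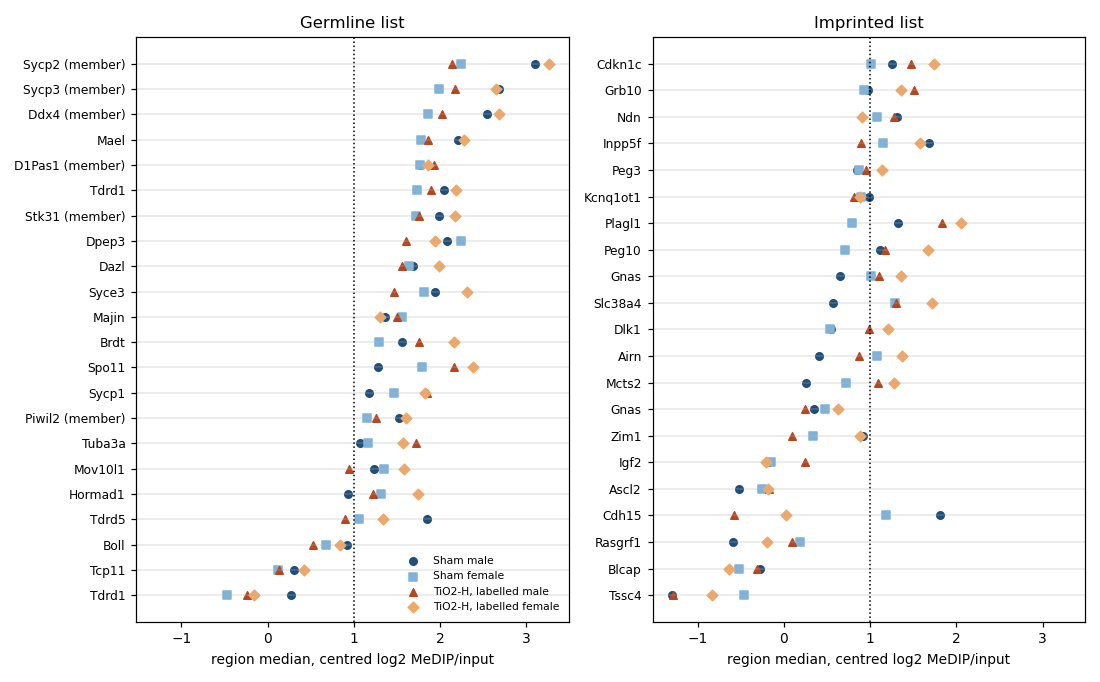
Region medians of the centred log2 MeDIP to input ratio for the 22 regions of the germline list (left) and the 21 regions of the imprinted list (right), 1 symbol per array, with the dotted line at the threshold of 1 and genes ordered by their lowest array. In the germline list 16 regions lie at 1 or more on all 4 arrays, whereas in the imprinted list Cdkn1c alone does so. Both lists were chosen with earlier results of these data known.

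The share of members among all named regions was 1.68%. The lists of housekeeping genes (5 regions), developmental transcription factors such as the homeobox families (124 regions) and clustered protocadherins (4 regions) held no member, but none of these regions passed the filter on signal, so none could be a member whatever its ratio. Gapdh was at -1.03, 0.15, -0.998 and -1.21 in the order of arrays used above, and Ppia at -1.15, -0.099, -0.22 and -0.59. Of the transcription factor regions, 3 were at 1 or more on all 4 arrays, those of Sox5, Foxo3 and Foxd1, named after their values were seen. The 2 regions of DNA methylation enzymes and cofactors held no member and neither passed the filter on signal, although Tet3, a 5-methylcytosine oxidase, was at 1.18, 1.15, 0.96 and 1.61. Of 78 regions of neuronal receptors, channels and synaptic proteins, 3 were members (3.85%). Among them were Grm6, a metabotropic glutamate receptor of the retina, and Dlgap3, a scaffold of the postsynaptic density. Of 50 regions of proteoglycan and axon guidance genes, 1 was a member (2.00%), Ephb2, an ephrin receptor. Their islands were all labelled as inside the gene.

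Of 67 members with an island class, 59 had a probe labelled inside a gene. The share of this label over all regions was not counted. It does not exclude the gene start, since Sycp3, D1Pas1 and Tmem54 carried it and had a probe in the window around the start. A probe labelled promoter or divergent promoter was found in 9 of the 67 (13.4%), against 1196 of 3886 regions with a class (30.8%). The 40 members without a symbol are unnamed here, since symbols were read from a shortened list that starts with the highest male ratios. Whether a member has a name therefore depends on the male comparison.

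The member with the highest lowest array was an unnamed region of 3 probes (chr3:8462856-8463085), at 4.45, 2.61, 2.80 and 3.92 in the order of arrays used above. Mboat7, a lysophosphatidylinositol acyltransferase, followed with 3.01, 2.46, 2.57 and 3.71 (4 probes at chr7:3637239-3637632). Both values of the female-labelled TiO2-H array exceeded those of the Sham female array by over 1 on the log2 scale. Crocc, the rootletin of the ciliary rootlet, had 3.26, 2.17, 2.42 and 3.004 (3 probes at chr4:140581070-140581513). Gpr20, an orphan receptor, had 2.04, 2.22, 1.98 and 2.39, and Ikbip had 1.94, 2.34, 2.40 and 2.76, so in these 2 the Sham male array was not the high one. The rest of the 12 with the highest lowest array were Sycp2, Sycp3, Henmt1 and 4 unnamed regions (chr5:114064140-114064624, chr4:153715735-153715986, chr14:31951947-31952242 and chr2:180763528-180763869) at 2.00 to 4.25 over all arrays.

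Only 7 members reached 2 or more on all 4 arrays, and the median of the lowest array over members was 1.49. Over the 104 members the median was 1.94 for Sham male, 1.68 for Sham female, 1.62 for male-labelled TiO2-H and 2.13 for female-labelled TiO2-H, with an SD over members of 0.71, 0.39, 0.37 and 0.50. These medians exceeded 97.5%, 98.2%, 97.2% and 98.2% of all regions on the respective arrays. The female-labelled TiO2-H array was the highest for 56 members and the Sham male array for 41, whereas the Sham female array was the highest for 3 and the male-labelled TiO2-H array for 4. The 2 arrays that were most often highest had the widest spread of ratios and the lowest X-linked input. The part of either in this order was not tested. After all arrays were scaled to a common spread, the Sham female array was the highest for 97 members.

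**Figure D2:**
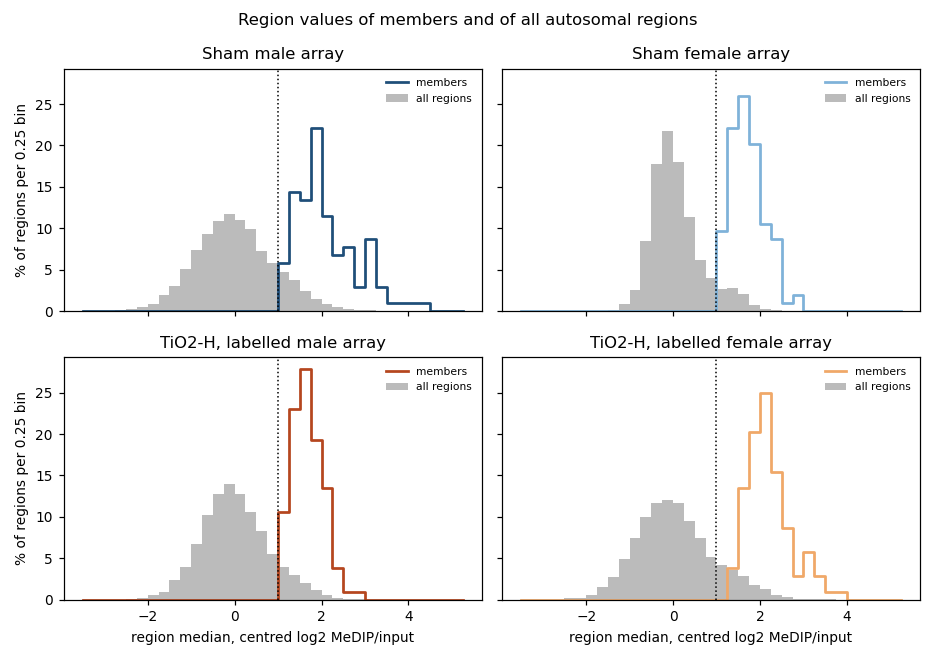
Distribution of the region medians (centred log2 MeDIP to input ratio, bins of 0.25) on each array, with all 13091 regions as grey bars and the 104 members as a coloured line, both in percent of their own number. The members start at the dotted threshold of 1, and the grey distribution is narrowest on the Sham female array.

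**Figure D3:**
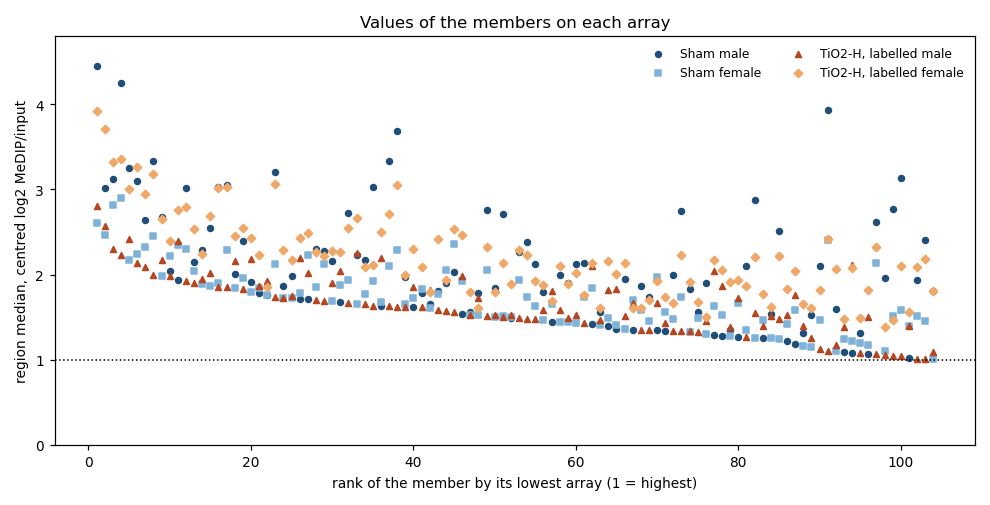
Region medians of the 104 members on each array, ordered by the lowest array. Points of the Sham male array and of the female-labelled TiO2-H array form the upper edge for most members, and the gap between arrays differs from member to member.

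The threshold did not fall at a gap. The members just above it were Cd63, a tetraspanin of endosomes, at 1.01 on its lowest array, Tmem54 at 1.01 and an unnamed region (chr8:91045300-91045751) at 1.01. The regions just below it were unnamed (chr17:48060744-48061400) at 0.998, Bhlha15 at 0.996 and unnamed (chr10:83996944-83997164) at 0.981. Of the 37 regions that passed the filter on signal without being members, 21 were below 1 on a single array, which was the male-labelled TiO2-H array for 11 of them, and 6 were below 1 on all 4 arrays.

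The ratios of the arrays followed each other to different degrees across members. Pearson's r over the 104 regions was 0.82 between the Sham female array and the female-labelled TiO2-H array, 0.73 between the Sham male array and the female-labelled TiO2-H array, 0.70 between both TiO2-H arrays and 0.67 between both Sham arrays. It was 0.60 between the Sham female array and the male-labelled TiO2-H array, and 0.23 between the Sham male array and the male-labelled TiO2-H array. The regions share array, dye and base composition, so these are descriptions.

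The range of the region median over the 4 arrays was 0.71 in the median member. It was smallest for D1Pas1 (0.16), an unnamed region of 8 probes (chr7:25866238-25867093, 0.20), Ptgfrn (0.21), 1 of the 2 Pitpnm2 islands (chr5:124573452-124573812, 0.26) and Atp2b2 (0.27), a calcium pump of the plasma membrane. It was largest for an unnamed region (chr9:43611501-43611990), at 3.94, 2.41, 1.10 and 2.41 in the order of arrays used above. Next came chr8:3537772-3538018 with 3.13, 1.59, 1.04 and 2.10, and chr15:78798091-78798540 with 3.69, 2.29, 1.62 and 3.05. In all of these 3 the Sham male array was the highest and the male-labelled TiO2-H array the lowest.

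Members had few probes and a bright input signal, as had the regions that passed the filter on signal without being members. They held 3 to 8 probes with a median of 4, against 6 over all regions, and 49 of the 104 (47.1%) had exactly 3, against 13.9% of all regions and 70.3% of the 37 that passed the filter without being members. They spanned 209 to 976 bp with a median of 378.5 bp, against 691 bp over all regions, at 100.4 bp per probe against 119.7 bp. The requirement that every probe be bright is met more easily by a region with few probes. Median input signal (Cy3 intensity) was 1192 on the Sham male array against 875 over all regions and 1643 over those 37, and 960 against 726 on the female-labelled TiO2-H array. The median background-subtracted Cy5 signal of members was 35.6, 28.5, 10.8 and 17.0 intensity units in the order of arrays used above, against 5.50, 6.56, 2.05 and 2.65 over all regions. The MeDIP signal of members was thus well above that of most regions but low in absolute terms, and lowest on the male-labelled TiO2-H array.

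Within members, the ratio varied along the island. Of the 412 member probes, 324 were at 1 or more on all 4 arrays and 10 were below 0 on at least 1 array. In 43 members every probe was at 1 or more on all 4 arrays. The range over the probes of a member, after averaging the arrays, was 1.06 in the median member and ran from 0.14 to 3.50. The 204 inner probes had a median of 1.94, 1.74, 1.73 and 2.24 in the order of arrays used above, against 1.79, 1.62, 1.56 and 1.98 for the 208 probes at the edges.

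The widest range was in Mtss2, a gene of actin and membrane bending, with 8 probes inside the gene (chr8:113262247-113263058). Its region values were 2.16, 1.68, 1.90 and 2.27, but 1 probe reached 8.19, 3.19, 2.21 and 5.50 in the same order, highest for Sham male. Tmem54 was low at 1 end of its island, where the last probe was at -0.48, 0.02, -0.58 and -0.34. In Sycp3 the ratio was higher towards 1 end of the island on every array, with 2.00, 1.93, 2.08 and 2.27 at the central probe and 4.99, 3.63, 3.38 and 4.67 at the last. Chst13, a carbohydrate sulfotransferase with 8 probes, had its highest ratio inside the island, at the fifth probe (3.39, 2.44, 3.02 and 3.32). The unnamed region of chromosome 7 given above also had 8 probes.

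**Figure D4:**
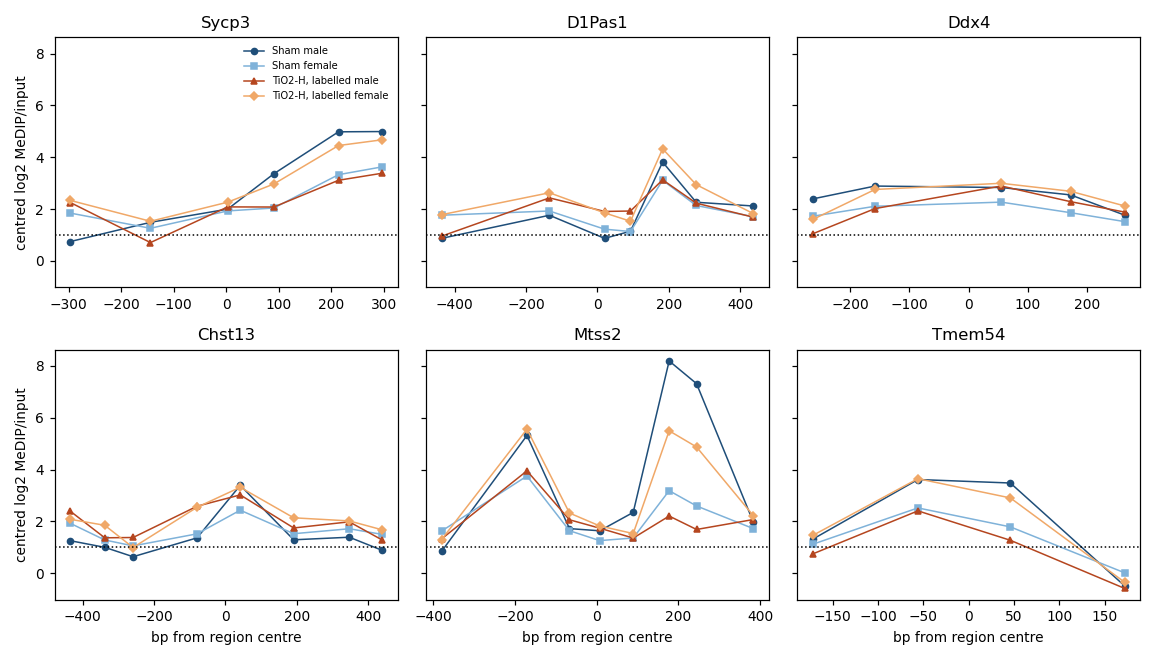
Centred log2 MeDIP to input ratio of single probes along 6 members, by distance from the centre of the region in bp, 1 line per array, with the dotted line at 1. The arrays trace shapes that are similar only in part. The peak of Mtss2 differs in height between arrays, highest at 8.19 on the Sham male array and lowest on the male-labelled TiO2-H array.

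Members lay on 18 of the 19 autosomes, with 12 on chromosome 7, 10 on chromosome 10, 9 on chromosome 4 and none on chromosome 16. As a share of the regions on the array this was highest on chromosome 10 (1.49%), with 1.29% on chromosome 6 (8 members) and 1.22% on chromosome 7. Over all autosomes 104 of 13091 regions were members. Within 5 Mb of the last probe of their chromosome lay 9 members (8.65%), against 6.21% of all regions. Another member lay within 1 Mb for 31 members, and how often other regions lie this close was not counted. On chromosome 10, 7 members lay within 1439 kb (chr10:79361859-80801058), among 100 regions there. They included Reep6, Abhd17a, Scamp4 and Zbtb7a, and their values ran from 1.06 to 3.21. On chromosome 5, Abcb9, a peptide transporter of lysosomes, and 2 Pitpnm2 islands lay within 33.8 kb and made up 3 of 6 regions there, at 1.42 to 2.14. On chromosome 8, Zfhx3, Gm1943 and Zfp821 lay within 932 kb, among 10 regions there, at 1.16 to 2.49.

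The study asked whether prenatal exposure shifts methylation. On the array it used the fold of the ratio within each sex, at 1.5 or more and at 0.67 or less. It counted single probes and genes and describes no centring on autosomes, whereas region medians of centred ratios are used here. It also measured selected genes in single offspring, by methyl-binding proteins and quantitative PCR. There Cyp4f39 and Hs6st3 were significantly lower after exposure and Synj2 was not. A probe counted as measured with Cy3 well above background on the 2 arrays, Cy5 on at least 1 and a log ratio p-value under 0.05 on at least 1. The value of a region is the median log2 fold of its measured probes, of which it needed 3. The folds use the same ratios as the rule, which left out any region that was dim or low on an array, whereas the regions set beside the members needed Cy5 on 1 array. The shares of members and of all regions therefore differ in part by selection, and with 1 array per group these folds have no test.

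In the male comparison (male-labelled TiO2-H array over Sham male), 101 members were measured and 3 were not. The median log2 fold over members was -0.44, against -0.69 over all 5896 measured regions. Of the measured members 40 fell (39.6%) and 4 rose (3.96%), whereas 60.9% of all measured regions fell and 0.594% rose. Caskin2, a synaptic scaffold, had the largest fall at -2.48. Sycp2 was at -1.47 and Sycp3 at -1.03. Among the 4 that rose were Zfp651 (0.82), Hnrnpm (0.77) and H1f7 (0.67).

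In the female comparison (female-labelled TiO2-H array over Sham female), 99 members were measured and 5 were not. The median log2 fold was 0.44, against -0.16 over all 7182 measured regions. Of the measured members 32 rose (32.3%) and none fell, whereas 17.1% of all measured regions rose and 32.7% fell. In 97 of the 99 the fold was above 0. The unnamed region at the head of the ranking was at 1.28, Mboat7 at 1.07, Sycp2 and Sycp3 each at 0.71, Ddx4 at 0.65 and D1Pas1 at 0.63. This direction turned with the scaling. The median over members became -0.06 without centring, against -0.67 over all measured regions. With a common spread it was -0.70 (0 rose, 70 fell), against -0.47 over 7182 regions (29 rose, 3009 fell). After quantile normalization it was -0.28 (0 rose, 13 fell), against -0.26 over 7178 regions (70 rose, 2151 fell). In the male comparison the median over members became -0.08 with a common spread (14 rose, 23 fell). Over all 5896 measured regions it was then -0.53 (95 rose, 2655 fell). After quantile normalization it was -0.01 over members (20 rose, 21 fell), against -0.51 over all regions (120 rose, 2524 fell).

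Folds of members between pools of the same exposure served as a reference. Between the Sham pools (female over male), 37 of 100 measured members fell and 2 rose (median -0.37), where 23.9% of all measured regions fell and 24.2% rose. Between the TiO2-H pools (female-labelled over male-labelled), 39 of 98 rose and none fell (median 0.46), where 70.0% of all measured regions rose and 0.00% fell. These medians of -0.37 and 0.46 stand beside those of -0.44 and 0.44 between exposures. The comparisons share arrays with each other, so each is given by its own values. With a common spread, the Sham pair turned to a median of 0.82, with 75 members risen and none fallen. Over all 7949 measured regions the median was then 0.33, with 2709 risen and 244 fallen.

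Medians over members also changed with the Sham array that served as denominator, which differed in labelled sex and slide. With the other Sham array in its place, the male-labelled TiO2-H array gave a median of -0.04 over members (2 rose, 3 fell) and the female-labelled TiO2-H array a median of 0.09 (17 rose, 7 fell). Measured members then numbered 100 and 99. Over all measured regions the medians were then -0.54 (11 rose and 3123 fell of 6555) and -0.12 (164 rose and 678 fell of 6040). The pairs of arrays formed this way had X-linked input of 0.03 and 0.03, and of -0.74 and -0.75. The part of X-linked input in these folds was not tested. Sycp2 was then at -0.11 and -0.41, and Sycp3 at -0.09 and -0.14.

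**Figure D5:**
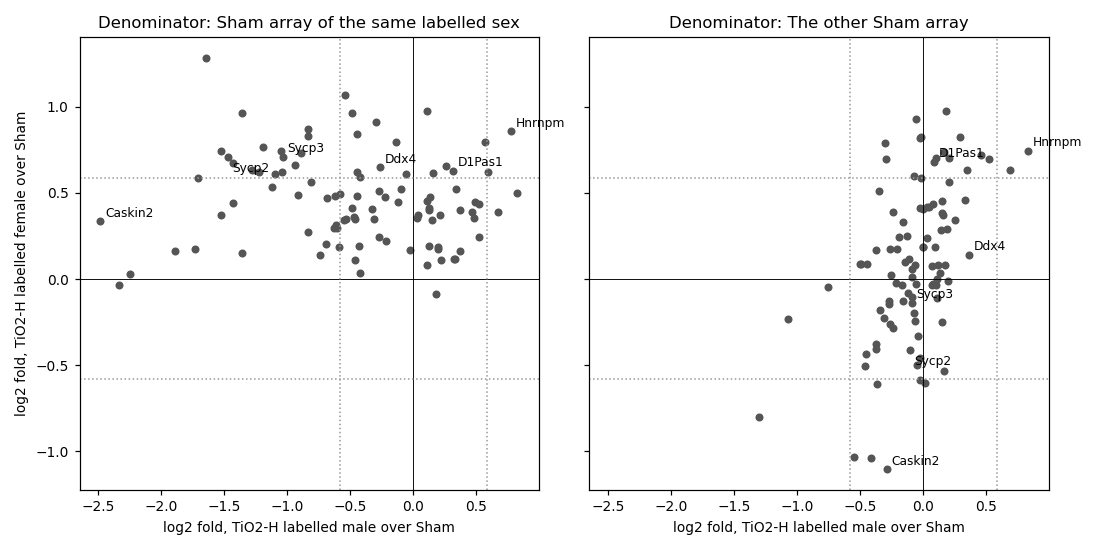
Log2 fold of each member measured in both comparisons, with the male-labelled TiO2-H array over a Sham array on the horizontal axis and the female-labelled TiO2-H array over a Sham array on the vertical axis. On the left the denominator has the same labelled sex and on the right it is the other Sham array, and dotted lines mark folds of 1.5 and 0.67. Members fall mostly in the upper left on the left, and gather near 0 on the horizontal axis on the right.

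Of the 98 members measured in both exposure comparisons, 42 passed 1.5-fold in neither, 22 fell in the male comparison only, 14 rose in the female comparison only and 2 rose in the male comparison only. A further 16 fell in the male and rose in the female comparison, Sycp2, Sycp3, Crocc, Zbtb7a, Tmem54 and Cd63 among them. None fell in both, and 2 rose in both, Hnrnpm among them. These joint patterns were not counted over all measured regions, so none can be called particular to members. Hnrnpm, a splicing regulator, had values of 1.08 and 1.22 on the Sham male and Sham female arrays and 2.11 and 2.08 on the male-labelled and female-labelled TiO2-H arrays (3 probes at chr17:33786780-33787118). Its log2 folds were 0.77 and 0.86. Its Sham and TiO2-H values did not overlap, but the female fold changed sign to -0.018 with a common spread.

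Both TiO2-H arrays lay above both Sham arrays in 27 of the 104 members (26.0%) and below both in 1 (0.962%), where 16.9% of all regions lay above and 15.3% below. With a common spread these counts were 0 and 28 (26.92%), where 16.74% of all regions lay above and 18.75% below. After quantile normalization they were 5 (4.808%) and 29 (27.88%), against 17.58% and 17.97% of all regions. Without centring they were 11 (10.58%) and 33 (31.73%), against 4.545% and 28.28% of all regions. The direction of this split among members therefore changed with the scaling and the centring. Hnrnpm was among the 5 after quantile normalization.

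Across both labelled sexes, limma was fitted to 39861 autosomal probes setting both TiO2-H arrays against both Sham ones. Pools of an exposure shared dams, which the limma fit does not model. It called 37 probes at an adjusted p under 0.05 (0.0928%), all lower in TiO2-H, and 0 of the 412 member probes. Of the member probes, 5 (1.21%) had an unadjusted limma p under 0.05, against 5.45% of all probes tested. Of these 5, 2 were higher and 3 lower in TiO2-H. With a common spread this share was 12.4% of member probes against 10.1% of all. After another background correction (normexp) it was 13.6% against 8.45%. It was 6.80% against 8.89% after quantile normalization, 3.64% against 9.69% without centring and 0.971% against 3.66% with labelled sex as a covariate. A tested probe needed Cy5 well above background on at least 2 arrays, whereas member probes had it on all 4. These shares therefore differ in part by selection. At a share of 0.0928%, hardly any call would fall among 412 probes. The lowest adjusted p of a member probe in limma was 0.299, at the last probe of P2ry2, a nucleotide receptor (chr7:108147504-108147552). That probe was at 1.85 and 2.21 on the Sham male and Sham female arrays and -0.60 and 0.60 on the male-labelled and female-labelled TiO2-H arrays, a difference of -2.03 (SE 0.57). The other 5 probes of P2ry2 were at 0.81 or more on every array. The median difference over member probes was 0.07, against -0.13 over all probes tested. Without the Sham female array 4 member probes (0.971%) passed the threshold in limma, against 1.09% of all probes, and without the female-labelled TiO2-H array 2 did (0.485% against 0.449%). In these fits the lone array of an exposure is assumed to vary like the pair of the other.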

How the data were processed

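The software named in the file headers was Agilent Feature Extraction 10.7.3.1. The authors deposited processed Cy5 and Cy3 intensity on a linear scale, with background subtracted and 1 scaling factor for each dye on an array. They also deposited log10 of the Cy5 over Cy3 ratio with a p-value from the software's error model. The series table gave the same log10 values.

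Of 88737 probes, 85850 were autosomal. They were joined into regions at gaps of up to 1000 bp (mm9). The log2 ratio of the deposited processed intensities was centred on the autosomal median of each array. Outlier-flagged probes were left out of folds and fits. In the fold comparisons all members were well above background on both arrays, so no fold is a bound. limma 3.58.1 (lmFit, eBayes, R 4.3.3) was fitted with Benjamini-Hochberg adjustment, with pools of different labelled sex as samples of an exposure. Since such pools shared dams, they are not independent samples, and the p-values of limma take no account of this. The fits and counts were tested on simulated data. Symbols came from RefSeq accessions in supplementary annotation columns (5312 of 5711 probes named). Authors' fold columns were not used.

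Members and lists were chosen with earlier results of these data known. Named regions were the 12 with the highest lowest array, 3 on each side of the threshold, those past 1.5-fold the same way in both comparisons (up to 5 a direction), the 3 with most probes (ties included) and the 3 of widest range over probes, the 5 of smallest and 3 of largest range over arrays, list members (up to 6 a list), groups of 3 or more within 1 Mb, and members called by limma. The values of 1 named member are not reported here. Alternatives covered background correction (normexp, offset 50), centring, spread, quantile normalization, filters, thresholds, gaps, the denominator and each array left out.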

Additional observations from a re-analysis of the deposited data

Results flagged for a closer look

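The median log2 fold over members was -0.44 in the male comparison and 0.44 in the female comparison, and 16 members fell past 1.5-fold in the first and rose past 1.5-fold in the second. The opposite directions depended on the processing, since the female median was -0.065 without centring, -0.70 with a common spread, -0.28 by quantiles and -0.11 by normexp, and the medians were -0.04 and 0.09 with the other Sham array as denominator. Of 98 members measured in both comparisons, 42 passed 1.5-fold in neither, and X-linked input of both TiO2-H arrays went against their sex labels. With 1 array per group, the difference between the labelled sexes was not tested. The share of all measured regions that moved in these opposite directions was not counted.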

How the results depend on the processing

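The number of members was 0 after normexp, whose offset of 50 exceeds the median background-subtracted Cy5 signal of members on every array, 49 without centring, 733 without the filter on signal, 175 with at least 80% of probes well above background and 25 with 5 or more probes. Leaving out 1 array gave 105 to 243, the latter without the male-labelled TiO2-H array. It stayed between 86 and 118 under the other thresholds, gaps, common spread and quantile normalization. In the male comparison 8 of 101 members rose uncentred, against 51 of all 5896 measured regions. With a common spread 14 rose and 23 fell, against 95 and 2655 of all regions, and by quantiles 20 and 21, against 120 and 2524. By normexp 0 rose and 24 fell, against 0 and 503, and at 2-fold 0 and 23, against 3 and 1398. With the other Sham array 2 rose and 3 fell of 100, against 11 and 3123 of 6555. The mean of probe folds gave 1 rise, against 27 over all regions. In the female comparison 1 rose and 1 fell of 99 members uncentred, against 154 and 3907 of all 7182 measured regions. With a common spread 0 rose and 70 fell, against 29 and 3009, and by quantiles 0 and 13, against 70 and 2151 of 7178. By normexp 1 rose and 12 fell, against 63 and 3475 of 7182. With the other Sham array 17 rose and 7 fell, against 164 and 678 of 6040. At 2-fold 2 rose, against 266 of 7182. In the Sham pair 9 rose and 20 fell of 100 members uncentred, against 2744 and 930 of all 7949 measured regions. With a common spread 75 and 0 did, against 2709 and 244, and by quantiles 30 and 2, against 1862 and 491 of 7947. At 2-fold 0 rose and 14 fell, against 1078 and 503 of 7949. Normexp gave 6 falls, against 134, and the mean of probe folds 1 rise, against 1958. In the TiO2-H pair 15 of 98 members rose uncentred, 19 with a common spread, 6 by quantiles, 2 by normexp and 11 at 2-fold. Of all 2888 measured regions 948, 1355, 1071, 82 and 695 rose in these settings.

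The median log2 fold over members turned in the female comparison to -0.065 uncentred and -0.70 with the common spread. It turned to -0.28 by quantiles and -0.11 by normexp. Over all measured regions the female medians were -0.67, -0.47, -0.26 and -0.56 in these settings. In the Sham pair the median over members turned to 0.82 with a common spread and 0.37 after quantile normalization, against 0.33 and 0.12 over all measured regions. Of the germline members and Hnrnpm, female folds past 1.5-fold that turned with a common spread were -0.57 for Sycp2, -0.83 for Sycp3, -0.76 for Ddx4, -0.64 for D1Pas1 and -0.018 for Hnrnpm. After quantile normalization -0.14, -0.27, -0.25 and -0.13 were found for Sycp2, Sycp3, Ddx4 and D1Pas1. Those of Stk31 and Piwil2, under 1.5-fold, turned to -0.71 and -0.40 with a common spread, -0.20 and -0.18 by quantiles, -0.40 and -0.12 by normexp and -0.027 and -0.054 uncentred. Sycp2 and Sycp3 also turned after normexp (-0.99 and -0.34) and with the other Sham array (-0.41 and -0.14). In limma, 70 probes were called with labelled sex as a covariate, 492 with a common spread, 228 by quantiles, 8 without the filter, 0 without centring (3861 at an unadjusted p under 0.05), 0 after normexp (3369) and 42 to 643 with 1 array left out, and member probes called were 1 with a common spread and 0 to 4 with 1 array left out. The cause of these changes was not tested. The fit with labelled sex as a covariate is the one paired within labelled sex and slide.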
